A study of Mus musculus with 6 samples.

Results

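The insulin-like growth factor (IGF) system was examined in the healing bone of mice that lack Cyp24a1, the enzyme that inactivates the hormonal form of vitamin D. It was represented by 10 genes, chosen by symbol: the ligands Igf1 and Igf2, the receptors Igf1r and Igf2r, and the binding protein genes Igfbp2, Igfbp3, Igfbp4, Igfbp5, Igfbp6 and Igfbp7. On the Affymetrix mouse expression array these genes are read by 28 probe sets (groups of short probes against 1 transcript) that carry a single gene symbol, of 45037 probe sets tested. The series compared 3 arrays of Cyp24a1 (-/-) callus, called null here, with 3 arrays of Cyp24a1 (+/-) littermate callus, called heterozygous, so every animal carried a disrupted Cyp24a1 allele. All mice were 12 weeks old on a C57BL6J x 129SV mixed background, with a tibia cut and held by an internal rod. Callus, which is the repair tissue that forms around such a cut, was collected on day 14. The labels do not say that each array came from a separate mouse, and p-values then measure only the spread between these arrays.

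IGF1 and IGF2 are secreted peptides that act on the receptor tyrosine kinase IGF1R and promote growth, survival and matrix production of cartilage, bone and muscle cells. IGF2R, which is also the cation-independent mannose 6-phosphate receptor, takes up IGF2 and delivers it to lysosomes. The high-affinity binding proteins hold the ligands in the matrix and the circulation and can block or prolong their action, whereas IGFBP7 binds IGFs only weakly. In bone, IGF1 is made by osteoblasts and macrophages among others, IGFBP5 is an abundant binding protein of bone matrix, and IGFBP3 is known in human cells as a gene induced by vitamin D.

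Promoter stretches are shown for 4 members: Igf1, Igfbp3 and Igfbp4, whose probe sets all had the same pair of arrays on top, and Igfbp5, for which this was not so. Each runs 5′ to 3′ over the 250 bases before a start listed by RefSeq on GRCm38.p6, and capitals mark matches on either strand to the half-sites of the vitamin D receptor element searched here (AGGTCA, its variant AGTTCA, its variant GGGTCA, or its variant GGTTCA), to the TATA box TATAAA and to the GC box GGGCGG. No match overlapped another in the 4 stretches.
Igf1 (chr10:87860861-87861110, + strand): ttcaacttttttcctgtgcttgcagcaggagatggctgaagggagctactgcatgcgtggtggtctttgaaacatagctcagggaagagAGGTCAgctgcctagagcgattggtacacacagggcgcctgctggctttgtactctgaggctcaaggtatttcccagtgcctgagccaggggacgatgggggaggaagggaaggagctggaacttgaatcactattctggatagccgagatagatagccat
Igfbp3 (chr11:7213924-7214173, - strand): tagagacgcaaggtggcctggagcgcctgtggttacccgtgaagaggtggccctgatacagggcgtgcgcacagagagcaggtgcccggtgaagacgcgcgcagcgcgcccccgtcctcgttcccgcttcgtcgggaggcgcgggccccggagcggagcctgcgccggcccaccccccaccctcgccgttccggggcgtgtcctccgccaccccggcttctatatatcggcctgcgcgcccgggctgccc
Igfbp4 (chr11:99040994-99041243, + strand): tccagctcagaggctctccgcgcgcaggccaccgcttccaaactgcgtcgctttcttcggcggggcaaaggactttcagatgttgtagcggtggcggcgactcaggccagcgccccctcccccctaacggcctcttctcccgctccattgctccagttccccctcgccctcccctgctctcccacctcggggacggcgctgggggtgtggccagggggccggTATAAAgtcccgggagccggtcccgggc
Igfbp5 (chr1:72874866-72875115, - strand): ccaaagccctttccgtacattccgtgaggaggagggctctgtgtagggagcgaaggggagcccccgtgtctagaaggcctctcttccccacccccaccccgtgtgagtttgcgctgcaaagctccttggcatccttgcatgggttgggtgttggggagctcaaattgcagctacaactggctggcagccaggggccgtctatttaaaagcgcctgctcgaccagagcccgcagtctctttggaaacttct

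The Igf1 stretch held 1 half-site, AGGTCA, from 161 to 156 bases before the start. The Igfbp4 stretch held a TATA box from 28 to 23 bases before the start, and the stretches of Igfbp3 and Igfbp5 held none of the letters searched. All 10 members matched the RefSeq table, with 14 such stretches because Igf2 has 4 listed starts and Igfbp2 has 2. A half-site occurred in 5 of the 14 (Igf1, Igf1r, Igf2, Igf2r and Igfbp6), against 38.6% of 32851 stretches of the same length. A GC box occurred in 6 of 14 against 32.7%, and a TATA box in 2 of 14 against 12.4%. The paired form, half-sites as a direct repeat with 3 bases between them, was found in 0 of 14 and in 0.0396% of all stretches. These are matches of letters and not evidence of binding.

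The labels give no replicate numbers, so replicates were numbered here within each group in the order in which the series lists the arrays. Median log2 values of the 6 arrays ran from 4.55 to 4.59. Null replicate 1 and heterozygous replicate 3 stood apart from the other 4 arrays by low levels of bone marrow genes. After centring of each gene on its own mean, 12 neutrophil genes averaged -2.96 (null replicate 1) and -3.57 (heterozygous replicate 3), against 1.40 to 1.98 on the other arrays. The 12 erythroid genes averaged -2.67 and -2.28 on the same pair, against 0.69 to 1.57. Null replicate 1 and heterozygous replicate 1 had high Xist and low Y-linked transcripts. Callus markers were present, with the bone collagen Col1a1 between 13.57 and 14.28 and the cartilage collagen Col2a1 between 7.04 and 9.76, but the hypertrophic cartilage collagen Col10a1 was at 3.11, 4.44 and 7.71 in null callus, against 7.79, 6.74 and 7.35 in heterozygous callus. Xist and Y-linked transcripts reached 3.52 on arrays where they are silent, which serves as a guide to background, so Col10a1 was not above it on null replicate 1. Genes of mature skeletal muscle lay far above this guide. All 16 measured were at 11.01 or more on every array, with the muscle creatine kinase gene Ckm between 13.60 and 14.10. The samples thus held muscle RNA besides that of callus, and the part of muscle in the IGF values was not tested. The 2 Cyp24a1 probe sets lay between 3.12 and 3.65 in null and between 2.71 and 3.69 in heterozygous callus, which does not check the genotypes.

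Of the 28 IGF probe sets 0 reached an adjusted p under 0.05 in limma, and 0 had an unadjusted p under 0.05. Among all 45037 probe sets, 0% passed and 3.69% (1.63% higher and 2.06% lower in null) had an unadjusted p under 0.05, so the members' count was not higher than that of the array as a whole. The lowest unadjusted p among the members was 0.103 and every adjusted p was 0.999. The 3 null values lay apart from the 3 heterozygous values in 2 of the 28 probe sets, 1 of Igf1r (higher in null) and 1 of Igfbp5 (lower in null), against 8.95% of all probe sets (3.57% higher and 5.38% lower). The difference, null minus heterozygous on the log2 scale, was above 0 in 19 probe sets and below 0 in 9, with a median of 0.16, where 48% of all probe sets were above 0 and their median was -0.01. With 1 probe set a gene, the one with the highest mean, 7 genes averaged higher and 3 lower with Cyp24a1 absent, where 49.7% of all genes were higher. With 3 against 3 arrays the two-sided exact permutation test cannot give a p below 0.1.

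**Figure D1:**
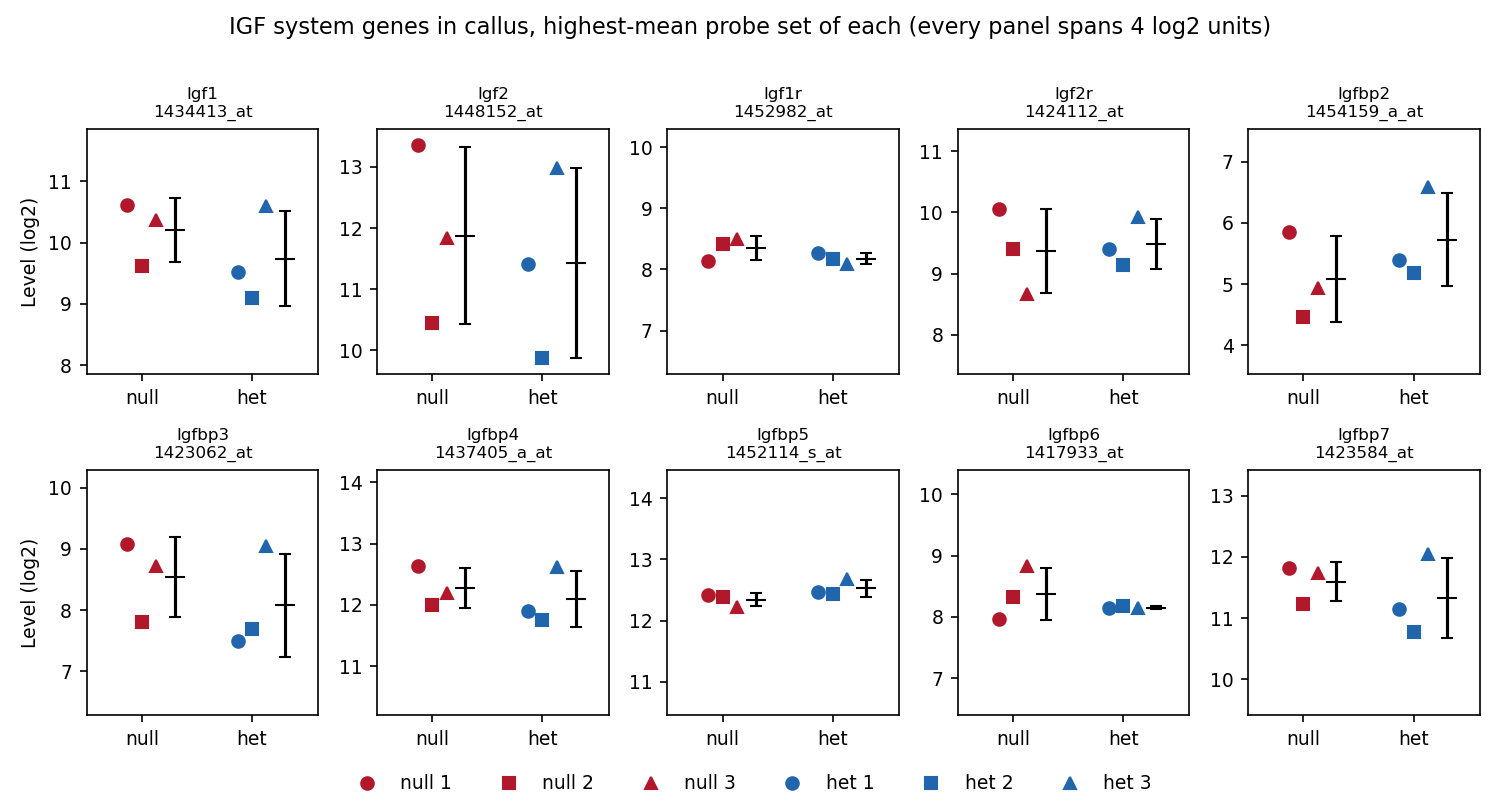
Level (log2) of the 10 IGF system genes on each array, with null callus left of heterozygous (het) callus and bars for mean ± SD (n = 3 each). In most panels null replicate 1 and heterozygous replicate 3 sit at the top of their groups, as for Igf2 at 13.35 and 12.98, and in the panel of Igfbp5 all null values lie under all heterozygous values.

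Igf1 was read by 4 probe sets, and all 4 averaged higher in null callus with overlapping groups. The probe set with the highest mean, 1434413_at, was at 10.61, 9.62 and 10.37 in null callus and at 9.53, 9.09 and 10.59 in heterozygous callus. Heterozygous replicate 3 was close to the highest null array, while the other heterozygous arrays were the lowest of the 6. The means were 10.20 ± 0.52 and 9.74 ± 0.77 (SD, n = 3 each), a difference of 0.46 (SE 0.43) or 1.38-fold (limma's adjusted p = 0.999). The other 3 differed by 0.45 (1437401_at), 0.40 (1419519_at) and 0.50 (1452014_a_at), with an SE between 0.35 and 0.45. The 95% interval of 1437401_at, the narrowest of the 4, ran from -0.39 to 1.29. Without heterozygous replicate 3 the difference of 1434413_at was 0.89, and without heterozygous replicate 2 it was 0.14.

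Macrophage genes had the same direction as Igf1. All 16 macrophage genes measured had a positive difference, with a median of 0.50, where 49.7% of all genes had a positive difference. None passed limma's test, and 3 of the 16 had an unadjusted p under 0.05, all higher in null callus, against 4.49% of genes in either direction. The mean relative level of the 16 was 1.02, -0.33 and 0.21 in null callus and -0.24, -0.81 and 0.14 in heterozygous callus. The array with the lowest macrophage level, heterozygous replicate 2, was also the lowest for Igf1. This was not particular to macrophage genes. The same array was lowest for 16 fibroblast and tendon genes (mean relative level -0.42) and for 14 endothelial genes (-0.27). The macrophage receptor gene Csf1r was measured well above background on every array, between 10.73 and 11.89 in null and between 10.57 and 11.42 in heterozygous callus. The part of macrophages or of any other cell type in the Igf1 values was not tested. In bulk tissue fewer cells of a type and less RNA per cell cannot be told apart, which holds for all values given here.

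Igf2 varied more between arrays than any other member, and its groups overlapped widely. Probe set 1448152_at was at 13.35, 10.45 and 11.83 in null callus and at 11.42, 9.88 and 12.98 in heterozygous callus, a span of 3.47 or 11.1-fold over the 6 arrays. Null replicate 1 and heterozygous replicate 3 were highest and heterozygous replicate 2 lowest. The means were 11.88 ± 1.45 and 11.43 ± 1.55 (SD, n = 3 each), and the difference of 0.45 (SE 0.97) had an interval from -1.87 to 2.77. Leaving out null replicate 1 gave -0.29, and leaving out heterozygous replicate 2 gave -0.32. The second probe set, 1415931_at, was at 5.65, 3.31 and 3.42 in null callus and at 3.61, 3.31 and 6.14 in heterozygous callus. Only 3 of its 6 values lay above the background guide, so its difference of -0.23 (SE 0.93) carries little information.

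Of the receptors, Igf1r varied little between arrays. Its probe set 1428967_at was at 6.60, 6.44 and 6.65 in null callus and at 6.27, 6.38 and 6.43 in heterozygous callus, so each null value lay above each heterozygous value, by as little as the distance between 6.44 and 6.43. The difference was 0.20 (SE 0.11) with an interval from -0.05 to 0.46 (limma's adjusted p = 0.999; two-sided exact permutation p = 0.1). The probe set with the highest mean, 1452982_at, differed by 0.17 (SE 0.13), with values of 8.13, 8.42 and 8.50 in null callus and 8.27, 8.17 and 8.09 in heterozygous callus. The other 3 Igf1r probe sets differed by -0.04, -0.01 and 0.07, and their signs turned when single arrays were left out. For 1452982_at and 1428967_at the limits of the 95% intervals lay between -0.14 and 0.49, which is a narrower range than for either ligand.

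Igf2r was read by 2 probe sets, and neither separated the groups. Probe set 1424112_at was at 10.05, 9.40 and 8.67 in null callus and at 9.40, 9.13 and 9.93 in heterozygous callus, with a difference of -0.11 (SE 0.37). The null arrays held both the highest and the lowest value. Probe set 1424111_at stayed between 8.40 and 8.72 in null and between 8.52 and 8.71 in heterozygous callus, a difference of -0.02 (SE 0.12) with an interval from -0.31 to 0.28. Both signs turned without null replicate 3, to 0.24 and 0.08.

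**Figure D2:**
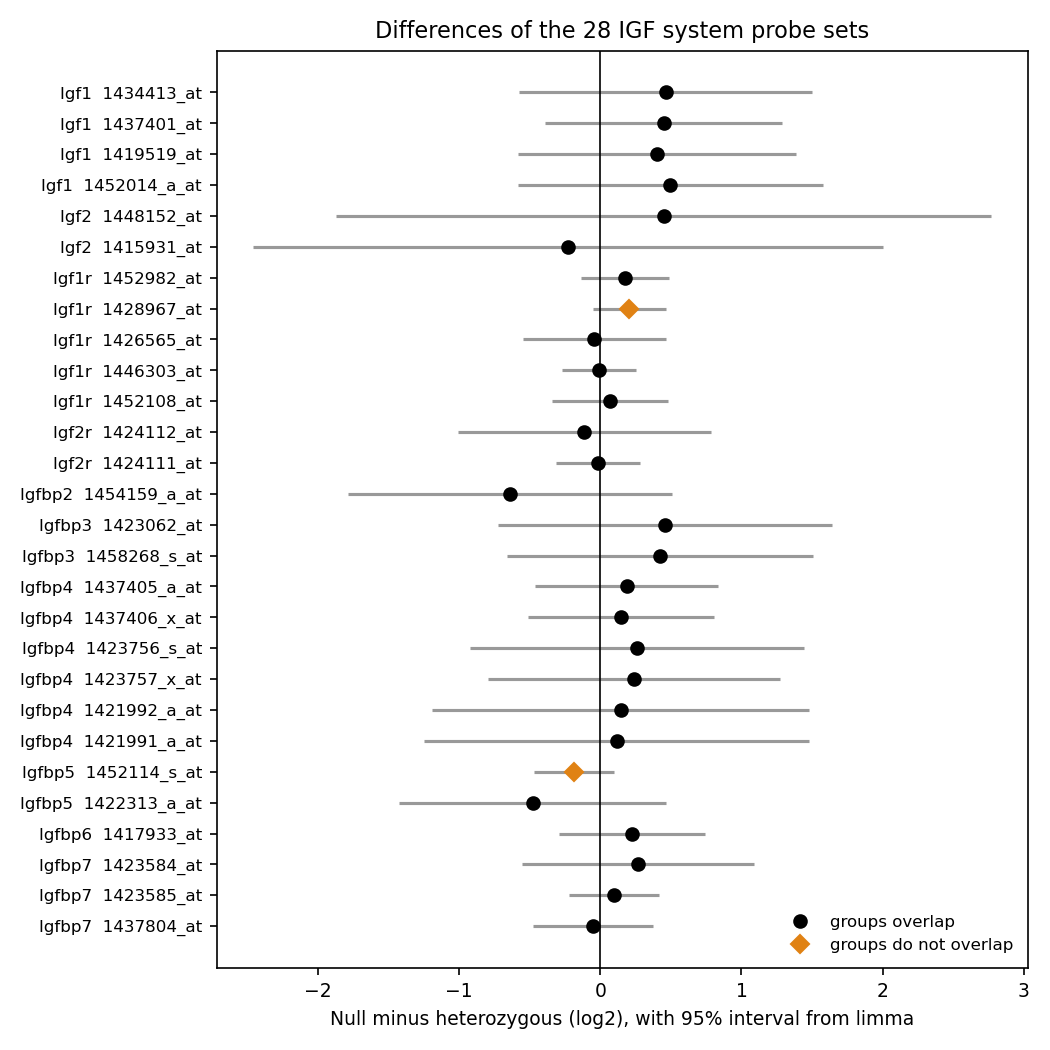
Difference between null and heterozygous callus (log2) for each of the 28 IGF system probe sets, with the 95% interval from limma. Every interval includes 0, the intervals of Igf2 are the widest, and the diamonds mark the 2 probe sets whose groups do not overlap, Igf1r at 0.20 and Igfbp5 at -0.19.

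Among the binding proteins, Igfbp5 had the 1 probe set in which all null values were under all heterozygous values. Probe set 1452114_s_at was at 12.41, 12.39 and 12.22 in null callus and at 12.46, 12.44 and 12.69 in heterozygous callus. The gap between the groups was smaller than the range within either of them. The difference was -0.19 (SE 0.12), a 1.14-fold higher heterozygous level (limma's adjusted p = 0.999; two-sided exact permutation p = 0.1), and it kept its sign when each array was left out (-0.23 to -0.11). The second probe set, 1422313_a_at, was at 7.03, 7.86 and 7.24 in null callus and at 8.22, 7.02 and 8.33 in heterozygous callus. It differed by -0.48 (SE 0.39) with overlapping groups, and by -0.90 without heterozygous replicate 2.

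Igfbp2, which lies next to Igfbp5 in the RefSeq gene order, had the most negative difference of the 28 probe sets. Its 1 probe set, 1454159_a_at, was at 5.85, 4.47 and 4.94 in null callus and at 5.39, 5.19 and 6.59 in heterozygous callus. Null replicate 2 and null replicate 3 were the lowest of the 6 arrays, and null replicate 1 lay within the heterozygous range. The means were 5.08 ± 0.70 and 5.72 ± 0.76 (SD, n = 3 each), a difference of -0.64 (SE 0.48) or a 1.56-fold higher heterozygous level, with an interval from -1.78 to 0.51. Leaving out null replicate 1 gave -1.02, and leaving out heterozygous replicate 3 gave -0.20.

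Igfbp3, whose product is the main IGF carrier of serum, had a profile close to that of Igf1. Probe set 1423062_at was at 9.08, 7.81 and 8.72 in null callus and at 7.49, 7.70 and 9.04 in heterozygous callus. As with Igf1, heterozygous replicate 3 came close to the null maximum and the other heterozygous arrays were lowest. The difference was 0.46 (SE 0.49) or 1.37-fold, with an interval from -0.72 to 1.64, and 1458268_s_at differed by 0.43 (SE 0.45). Without heterozygous replicate 3 the differences were 0.94 and 0.88, and the lowest value with 1 array left out was 0.17 for 1423062_at and 0.14 for 1458268_s_at.

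Igfbp4, which encodes a binding protein known to restrain IGF action and to be cut by the protease PAPP-A, was read by 6 probe sets. All 6 had a positive difference, from 0.12 to 0.26, each smaller than its SE (0.27 to 0.57). Probe set 1437405_a_at was at 12.64, 12.00 and 12.19 in null callus and at 11.90, 11.76 and 12.61 in heterozygous callus. They read 1 gene and so are not independent readings. The sign of 5 of the 6 turned when single arrays were left out.

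Igfbp6, whose product prefers IGF2 over IGF1, was at 7.96, 8.33 and 8.82 in null callus and at 8.14, 8.17 and 8.14 in heterozygous callus (1417933_at). The heterozygous arrays were nearly equal and lay inside the null range, and the difference was 0.22 (SE 0.22), or -0.0020 without null replicate 3. Igfbp7, the weakly binding relative that is known as a product of vessel walls, was at 11.81, 11.24 and 11.74 in null callus and at 11.15, 10.78 and 12.05 in heterozygous callus (1423584_at). The difference was 0.27 (SE 0.34) with overlapping groups, and it was 0.63 without heterozygous replicate 3. Its other probe sets, 1423585_at and 1437804_at, differed by 0.10 (SE 0.13) and -0.05 (SE 0.18). Of 14 endothelial genes, 13 had a positive difference, against 49.7% of all genes, with a median of 0.23. An unadjusted p under 0.05 was reached by 1 of the 14, against 4.49% of all genes, and 0 passed limma's test. The mean relative levels of the 14 were 0.03, 0.08 and 0.22 in null callus and -0.19, -0.27 and 0.13 in heterozygous callus. Of 12 smooth muscle and pericyte genes, 9 had a positive difference, with a median of 0.19. The part of vessel cells in the Igfbp7 values was not tested.

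Many of the member probe sets, but not all, had the same pair of arrays on top. Null replicate 1 and heterozygous replicate 3, the arrays low in marrow genes, were the 2 highest of the 6 arrays in 19 of the 28 probe sets, against 16.1% of all probe sets, and the 2 lowest in 2 probe sets (of Igf1r and Igfbp6), against 13.4%. In Igf1, Igf2, Igfbp2, Igfbp3 and Igfbp4 they were the 2 highest in every probe set. For Igfbp5 and Igfbp6 this was not so in any probe set. Probe sets of 1 gene share their transcript, so 19 is not a count of separate genes. The part of the lower marrow content in these levels was not tested.

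For members whose probe set of highest mean spanned at least 1 log2 unit, the most similar genes were sought among 11482 others, by the root mean square (RMS) difference of their array values after each gene was centred on its own mean. Igf2 was closest to Actc1, the cardiac alpha-actin also made by developing and regenerating skeletal muscle (RMS difference 0.15), to Myh8, the perinatal myosin heavy chain (0.19), and to Mest, a paternally expressed imprinted gene (0.25). Actc1 was at 12.90, 9.68 and 11.17 in null callus and at 10.78, 9.22 and 12.65 in heterozygous callus, and so had the same order of arrays as Igf2. Genes of mature skeletal muscle did not share it: the mean relative level of 16 such genes was -0.45, 0.16 and 0.12 in null callus and 0.13, 0.20 and -0.17 in heterozygous callus.

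Igf1 was closest to Col5a3, a fibrillar collagen gene (0.070), to Pxdn, which encodes the basement membrane peroxidase peroxidasin (0.085), and to Postn, the matricellular protein periostin (0.089). Igfbp3 was closest to the metalloproteinase genes Adamts12 (0.11) and Mmp14 (0.14) and to Olfml1 (0.15). Igfbp7 was closest to Mcam, an adhesion molecule of vessel walls (0.044), to the transcription factor gene Sox4 (0.065) and to the protocadherin gene Pcdh18 (0.067). Igf2r was closest to Slc1a3, Tasor2 and Rcor1 (0.12 to 0.15), and Igfbp2 to Enho, Gpr20 and 2900079G21Rik (0.17 to 0.21). All these likenesses rest on the same 6 arrays, of which 2 are low in marrow genes, and they say nothing about shared control.

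**Figure D3:**
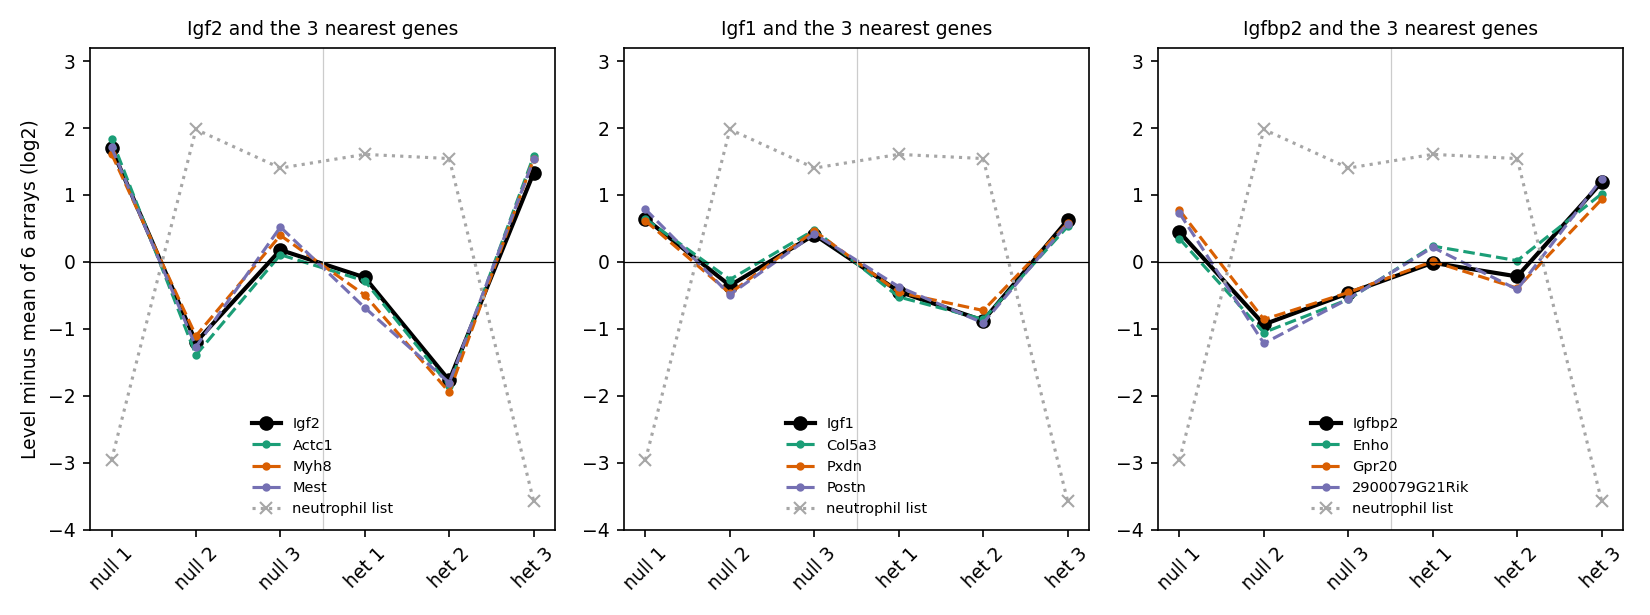
Level minus the mean of the 6 arrays (log2) for Igf2, Igf1 and Igfbp2 (black) with the 3 most similar genes of each (dashed) and the mean of 12 neutrophil genes (grey, dotted), null arrays left and heterozygous (het) arrays right. Igf2 peaks on null replicate 1 and heterozygous replicate 3, where the neutrophil genes are lowest at -2.96 and -3.57.

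When null replicate 1 and heterozygous replicate 3 were dropped, 2 arrays remained in each group. The differences of several members were larger or had a smaller SE. High Xist then remained on heterozygous replicate 1 only, and the part of this sex-linked imbalance was not tested. The groups did not overlap in 17 of the 28 probe sets, against 39.4% of all probe sets on the same 4 arrays. Of the 17, 15 were higher in null callus (17.6% of all probe sets) and 2 lower (21.8%). Several of the 15 read the same gene, as for Igf1, Igfbp3 and Igfbp4, so 17 is not a count of separate genes. All 4 Igf1 probe sets were among the 15, with differences from 0.38 to 0.69. The 2 lower ones were Igfbp2, with a difference of -0.59 (SE 0.20), and Igfbp5 1452114_s_at at -0.14 (SE 0.13). For 3 of the 28 the unadjusted p was under 0.05, against 7.67% of all probe sets, and the lowest adjusted p of a member in limma was 0.644. With heterozygous replicate 3 alone left out, an array low in marrow genes remained in the null group only. In that unbalanced setting 5 of the 28 had an unadjusted p under 0.05, all higher in null callus (2.88% of all probe sets in that direction). Groups did not overlap in 14 of the 28, against 24% of all probe sets in either direction. The part of this marrow imbalance in these counts was not tested.

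With the marrow score (the mean relative level of the neutrophil and erythroid genes) as a covariate on all 6 arrays, the difference of Igfbp2 was -0.64 (SE 0.12, unadjusted p = 0.00150) and that of Igf1 1419519_at was 0.40 (SE 0.11, unadjusted p = 0.00738). Neither passed limma's test over the table (adjusted p = 0.620 for both). Of the Igf1 probe sets, 1419519_at had the lowest unadjusted p in this fit. The one with the highest mean, 1434413_at, differed by 0.47 (SE 0.22, limma's unadjusted p = 0.077). In this fit 4 of the 28 probe sets had an unadjusted p under 0.05, 3 of Igf1 and 1 of Igfbp2, against 7.77% of all probe sets. With 6 arrays the fit left few degrees of freedom, and the score was taken from these same arrays.

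**Figure D4:**
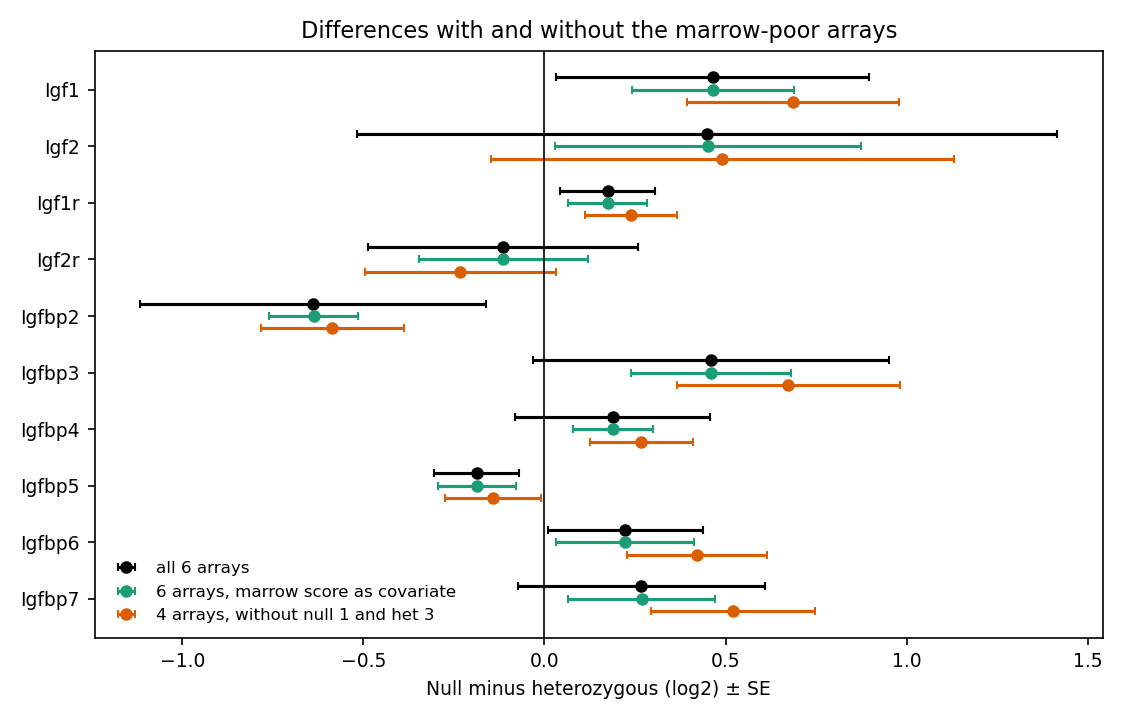
Difference between null and heterozygous callus (log2) ± SE for the probe set of highest mean of each IGF system gene, from all 6 arrays, then adjusted for the marrow score, and then from the 4 arrays without null replicate 1 and heterozygous replicate 3. The bars of Igfbp2 shrink from an SE of 0.48 to 0.12 and 0.20 around differences of -0.64, -0.64 and -0.59.

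Genes that act around the ligands and receptors were read from lists, with 1 probe set a gene. Among 36 insulin and IGF signal transducers, 18 were higher and 18 lower in null callus, and 0 passed limma's test (lowest adjusted p = 0.999). An unadjusted p under 0.05 was reached by 3 of them, all lower in null callus, against 2.43% of 18193 genes in that direction. They were Akt2, a kinase that carries insulin and IGF signals, Mtor, the kinase that couples growth factors to protein synthesis, and Tsc2, which restrains mTOR complex 1. Akt2 was at 9.32, 9.17 and 8.77 in null callus and at 9.62, 9.67 and 9.68 in heterozygous callus, a difference of -0.57 (SE 0.16) with the same sign on all 3 of its probe sets. Mtor was at 8.31, 8.38 and 8.20 in null callus and at 8.98, 8.90 and 8.41 in heterozygous callus, a difference of -0.46 (SE 0.17), also with the same sign on all 3. Tsc2 differed by -0.53 (SE 0.17). An unadjusted p under 0.05 in either direction was seen in 4.49% of genes. Groups did not overlap in 5 of the 36, against 10.1% of genes, with 4 of the 5 lower in null callus (5.99% of genes), and Rptor, a partner of mTOR, differed by -0.17 (SE 0.09) without overlap.

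Of 12 genes for proteases, inhibitors and carriers of the IGF system, 6 were higher and 6 lower in null callus, with 0 at an unadjusted p under 0.05. Pappa, which encodes the protease PAPP-A, was at 6.00, 5.56 and 5.02 in null callus and at 5.29, 5.07 and 5.02 in heterozygous callus, a difference of 0.40 (SE 0.25) with the same sign on 2 of 3 probe sets. Vtn, which encodes the matrix protein vitronectin, differed by 0.47 (SE 0.25), the lysosomal protease gene Ctsd by -0.29 (SE 0.17) and Pappa2 by 0.16 (SE 0.13). Of 10 growth hormone axis genes 7 were higher and 3 lower, with 0 at an unadjusted p under 0.05. Their differences ran from -0.22 to 0.30, with the signal transducer gene Stat5b at the lower end, and the growth hormone feedback inhibitor gene Socs2 differed by 0.13 (SE 0.15) with the same sign on 2 of 6 probe sets.

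**Figure D5:**
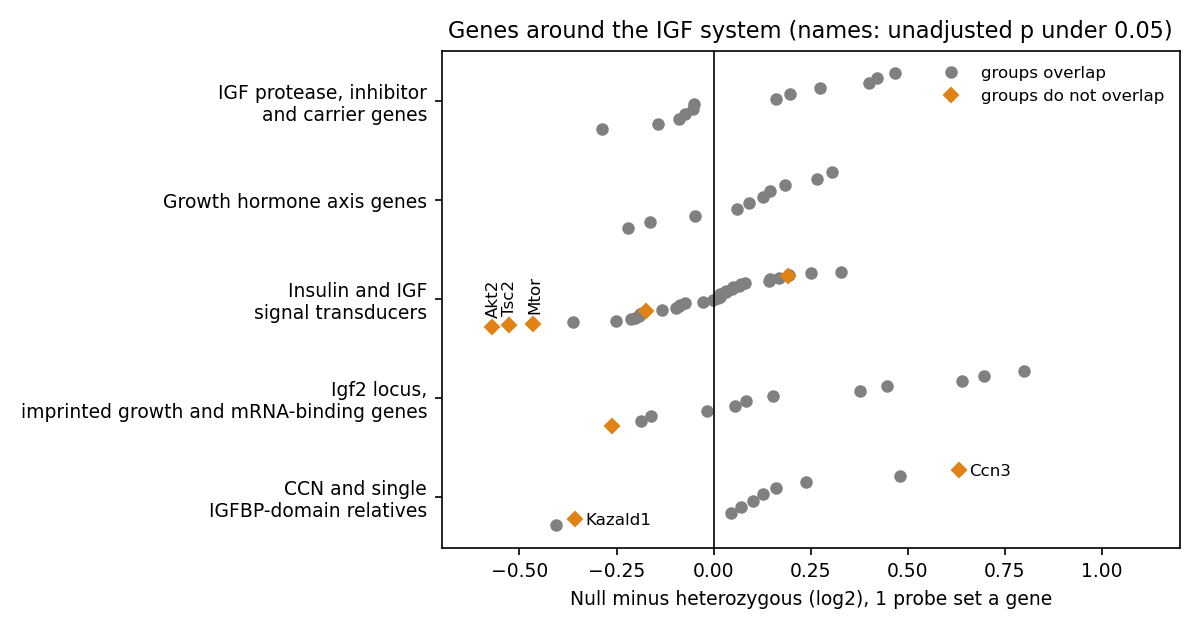
Difference between null and heterozygous callus (log2) for each measured gene of 5 lists around the IGF system, 1 probe set a gene, with diamonds where the groups do not overlap. Named genes had an unadjusted p under 0.05, and Akt2, Tsc2 and Mtor lie at -0.57, -0.53 and -0.46.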

How the data were processed

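Callus RNA from 3 null and 3 heterozygous samples was labelled with biotin and read on Affymetrix mouse arrays, per the labels' protocols. The authors deposited 1 log2 value per probe set and array; the log2 scale was read from the range of the values, and the sources used here do not give how the authors normalised them. Probe sets were named from the platform annotation, and 64 control probe sets were left out. The values were used as deposited and fitted with limma 3.58.1 in R 4.3.3 (group means, eBayes, two-sided, Benjamini-Hochberg adjustment over 45037 probe sets, threshold 0.05). The fit was tested on simulated data. Precision is limited by the number of arrays, and values near the background guide are compressed. Levels of different probe sets are not compared.

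The members, lists and the settings that concern marrow and sex-linked genes were chosen with earlier results of these data known. All member probe sets were to be named, with up to 4 genes of lowest unadjusted p from each surrounding list and the 3 most similar genes of members spanning at least 1 log2 unit. Lists used the probe set of highest mean per gene. Some list genes are not reported here. Other settings were quantile and cyclic loess normalisation, median centring, 1 probe set per gene, weighting of arrays, a robust prior with an intensity trend, removal of probe sets under the median level, a threshold of 0.1, leaving out arrays, and the marrow or a sex-linked score as a covariate. Pseudocounts were planned only for linear values.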

Additional observations from a re-analysis of the deposited data

How the results depend on the processing

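No IGF probe set passed limma's test under any setting tried (lowest adjusted p 0.462, for Igf1r 1428967_at with array weights), and of all probe sets 1 passed after adjustment for the marrow score and 0 under the other settings. The count of IGF probe sets at an unadjusted p under 0.05 was 0 with all arrays, against 3.69% of all probe sets. It was 1 with array weights (10.3% of all), 4 with the marrow score (7.77%) and 3 without both marrow-poor arrays (7.67%). With 1 array left out it ran from 0 to 5. The highest, 5, came without heterozygous replicate 3, all higher in null callus, against 2.88% of all probe sets in that direction. That setting leaves an array low in marrow genes in the null group only, and the part of this imbalance was not tested. The count without overlap was 2 with all arrays (8.95% of all probe sets), 1 after quantile normalisation (9.08%) and 1 after cyclic loess (8.87%). It was 1 of 10 with 1 probe set per gene (10.1% of genes) and 17 without both marrow-poor arrays (39.4%). With 1 array left out it ran from 2 to 14. It was 14 without heterozygous replicate 3 (24% of all probe sets) and 5 without null replicate 1 (22.1%). Fewer arrays separate more easily. Settings without null replicate 1 left high Xist in the heterozygous group only, and the part of this was not tested.

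Signs turned for several probe sets, and the cause was not tested. Igf1r 1426565_at was 0.042 with array weights. Without both marrow-poor arrays Igf1r 1426565_at was 0.017, Igf1r 1446303_at 0.015 and Igf2r 1424111_at 0.0015. With 1 array left out the differences ran from -0.19 to 0.15 for Igf1r 1426565_at, from -0.063 to 0.044 for 1446303_at and from -0.085 to 0.17 for 1452108_at. They ran from -0.32 to 1.23 for Igf2 1448152_at, from -0.99 to 0.67 for 1415931_at, from -0.45 to 0.24 for Igf2r 1424112_at and from -0.075 to 0.080 for 1424111_at. For Igfbp4 they ran from -0.31 to 0.70 (1421991_a_at), -0.24 to 0.72 (1421992_a_at), -0.076 to 0.77 (1423756_s_at), -0.077 to 0.67 (1423757_x_at) and -0.036 to 0.42 (1437406_x_at). They ran from -0.0020 to 0.43 for Igfbp6, from -0.0078 to 0.63 for Igfbp7 1423584_at and from -0.19 to 0.12 for 1437804_at. The other 13 IGF probe sets kept their sign under every setting. No paired analysis was possible because the labels give no replicate numbers or litters.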

Other observations

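Several imprinted genes had the same 2 highest arrays as Igf2. Of 12 genes around the Igf2 locus, imprinted growth control and Igf2 mRNA binding, 7 had null replicate 1 and heterozygous replicate 3 as the 2 highest arrays, against 16.4% of genes. Mest was at 10.76, 7.79 and 9.58 in null and at 8.37, 7.25 and 10.59 in heterozygous callus, and Dlk1, which encodes a transmembrane inhibitor of adipocyte differentiation, at 8.41, 5.25 and 7.41 in null and at 5.91, 4.94 and 7.82 in heterozygous callus. Dlk1 differed by 0.80 (SE 0.99), while its second probe set, at a low mean level of 3.40, differed by -0.18 (SE 0.19). The maternally expressed Meg3, whose 2 highest arrays were null replicate 1 and null replicate 3, differed by 0.70 (SE 0.61). Plagl1, Peg3 and the cell cycle inhibitor gene Cdkn1c, named after their values were seen, had the same 2 arrays on top, with Cdkn1c at 10.83, 7.61 and 9.36 in null and at 8.07, 7.93 and 10.46 in heterozygous callus. Igf2os, the antisense transcript of Igf2, was at 4.03, 3.92 and 4.15 in null and at 4.36, 4.34 and 4.19 in heterozygous callus, a difference of -0.26 (SE 0.11) without overlap (limma's adjusted p = 0.999). Its values lay little above the background guide of 3.52 and under the lowest array median of 4.55. Groups did not overlap in 1 of the 12 genes, against 10.1% of all genes. None of the 12 had an unadjusted p under 0.05, and 8 were higher and 4 lower in null callus.

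Of 10 CCN family and other genes with an IGFBP-type domain, 8 were higher and 2 lower in null callus. Ccn3, a matricellular CCN protein, was at 8.73, 8.05 and 8.11 in null and at 7.69, 7.28 and 8.03 in heterozygous callus, a difference of 0.63 (SE 0.26, limma's adjusted p = 0.999) with the same sign on both probe sets. Kazald1, which encodes a secreted protein with an IGFBP domain, was at 5.76, 5.91 and 5.93 in null and at 6.11, 6.19 and 6.37 in heterozygous callus, a difference of -0.36 (SE 0.12, limma's adjusted p = 0.999). These were the 2 of 10 with an unadjusted p under 0.05, against 4.49% of genes.

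Of the other marker lists, 4 of 16 chondrocyte genes (median difference -0.21), 4 of 12 osteoblast and osteocyte genes (-0.22) and 4 of 10 osteoclast genes (-0.09) were higher in null callus. So were 13 of 16 fibroblast and tendon genes (0.38), 9 of 12 smooth muscle and pericyte genes (0.19) and 5 of 10 adipocyte genes (0.01). The same held for 13 of 14 keratinocyte genes (1.18) and 9 of 15 handling and immediate early genes (0.18). Skeletal muscle genes were higher in 1 of 16 (-0.07), neutrophil genes in 10 of 12 (0.36) and erythroid genes in 2 of 12 (-0.25). Among all genes 49.7% had a positive difference. None of these genes passed limma's test. An unadjusted p under 0.05, seen in 4.49% of all genes, was found in 2 osteoblast and osteocyte genes, 1 chondrocyte gene and 1 immediate early gene, all lower in null callus. It was also found in 2 fibroblast and tendon genes, 2 keratinocyte genes and 1 smooth muscle and pericyte gene, all higher. It was found in 0 osteoclast, adipocyte, skeletal muscle, neutrophil and erythroid genes.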
